A study of Homo sapiens with 8 samples.

Results

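The genes of the cell cycle and of DNA replication were followed here as a set of 40 named genes in 2 human colon cancer cell lines, with and without oxygen deprivation. Where several probe sets were annotated to a gene and to no other, the one with the brightest average over the 8 arrays stood for it. All 40 were found among the 19775 annotated genes, and all 40 were among the 12735 genes bright enough to be tested. The names were chosen for their roles, with earlier results of these data known, and no measured difference was part of the rule. The 4 groups, with 2 Affymetrix HG-U133 Plus 2.0 arrays each, were DKS-5 cells after 12 h at 1% O2 (hypoxia), DKS-5 cells at 21% O2 (normoxia), DKO-3 cells after 12 h at 1% O2 and DKO-3 cells at 21% O2. DKS-5 carries the genotype label K-ras mutant. DKO-3 is labelled K-ras wild-type and, elsewhere, K-ras knockout (wild-type). Both were harvested at 70% confluency. DKO-3 is known as a line grown out of DLD-1 colon cancer cells after gene targeting, and each line is a single clone, so a difference between them cannot be told apart from a difference between clones. The level of the K-ras gene is not analysed here.

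A dividing cell copies its DNA in S phase and separates the copies in mitosis, and it makes the proteins for each task in waves. In late G1 the MCM2-7 ring, the core of the replicative helicase, is loaded at origins by CDC6 and CDT1, and GINS proteins and MCM10 help to start it. These genes, with those for nucleotide supply and for cyclin E, are textbook targets of the E2F transcription factors. Genes for entry into mitosis, such as those for cyclin B1, CDK1, PLK1 and the Aurora kinases, peak later, in G2 and M. Many of them carry a short promoter element called CHR (cell cycle genes homology region), bound by the MuvB complex together with B-MYB, the product of MYBL2, or FOXM1, and CCAAT boxes bound by NF-Y. Low oxygen is known to slow or stop proliferation in many cell types, to an extent that varies with how low the oxygen is and for how long. A bulk array cannot tell fewer cells in a phase from less RNA per cell.

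Promoter letters of S-phase and mitotic members are given first because these genes are known for different elements and because the letters do not depend on any array value. RefSeq promoter windows of the GRCh38.p14 assembly, from 250 bases before to 50 after the start of a transcript, were at hand for 30 of the 40 members. Windows were searched on both strands for 4 E2F-like words (TTGGCGC and its variants TTCCCGC as well as TTCGCGC and also TTGCCGC), 2 CHR-like words (TTTGAA and also TTTAAA), the CCAAT box (the word itself) and the core of the hypoxia response element (ACGTG and also GCGTG). Matches were allowed to overlap, and a gene was counted when any of its windows held a match. E2F-like letters stood in 14 of 16 S-phase members (87.5%) and in 4 of 13 mitotic members (30.8%), beside 15.3% of the 27305 genes with a window. CHR-like letters ran the other way, with 3 of 16 S-phase members (18.8%) and 10 of 13 mitotic members (76.9%), beside 27.9% of all genes. The CCAAT box was present in 12 of 16 S-phase members (75%) and 12 of 13 mitotic members (92.3%), beside 39.7% of all genes. The hypoxia response element core stood in 12 of 16 S-phase members (75%) and 9 of 13 mitotic members (69.2%), beside 52.4% of all genes. A match of letters is a description and not a binding site.

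Of 5 members the 250 bases before the start are printed, 5′ to 3′ on the gene's own strand, with E2F-like, CHR-like and CCAAT letters in capitals. MCM6 and CDC25A show the E2F-like pattern, and TOP2A and MKI67 show the CHR-like letters beside CCAAT boxes. MYBL2, which had the highest estimate under hypoxia in DKS-5, held none of the words searched for these 3 kinds in this stretch. It does hold ttggcgg, which differs from the E2F-like word TTGGCGC in its last letter and was not on the list. The short list therefore cannot show that an E2F element is absent there.
MCM6, chr2:135876444-135876693, minus strand: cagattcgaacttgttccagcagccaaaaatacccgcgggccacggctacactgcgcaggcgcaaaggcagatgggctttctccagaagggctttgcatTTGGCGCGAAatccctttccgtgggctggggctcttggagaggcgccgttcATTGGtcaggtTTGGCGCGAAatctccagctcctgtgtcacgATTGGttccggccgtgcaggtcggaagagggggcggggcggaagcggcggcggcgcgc
CDC25A, chr3:48188418-48188667, minus strand: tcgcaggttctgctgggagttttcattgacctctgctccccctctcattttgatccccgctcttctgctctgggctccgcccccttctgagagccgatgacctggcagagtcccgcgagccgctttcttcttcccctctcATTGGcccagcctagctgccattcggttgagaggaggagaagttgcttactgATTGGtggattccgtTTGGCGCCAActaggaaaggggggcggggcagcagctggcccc
TOP2A, chr17:40417897-40418146, minus strand: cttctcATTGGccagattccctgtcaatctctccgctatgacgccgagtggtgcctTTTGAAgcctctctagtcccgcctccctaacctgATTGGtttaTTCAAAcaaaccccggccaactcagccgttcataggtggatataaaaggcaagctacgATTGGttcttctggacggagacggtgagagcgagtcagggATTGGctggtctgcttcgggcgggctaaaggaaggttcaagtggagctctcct
MKI67, chr10:128126424-128126673, minus strand: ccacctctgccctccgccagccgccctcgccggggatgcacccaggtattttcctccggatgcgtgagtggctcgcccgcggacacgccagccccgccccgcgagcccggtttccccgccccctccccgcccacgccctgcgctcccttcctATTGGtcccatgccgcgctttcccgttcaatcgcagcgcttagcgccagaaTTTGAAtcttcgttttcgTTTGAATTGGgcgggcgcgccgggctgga
MYBL2, chr20:43666864-43667113, plus strand: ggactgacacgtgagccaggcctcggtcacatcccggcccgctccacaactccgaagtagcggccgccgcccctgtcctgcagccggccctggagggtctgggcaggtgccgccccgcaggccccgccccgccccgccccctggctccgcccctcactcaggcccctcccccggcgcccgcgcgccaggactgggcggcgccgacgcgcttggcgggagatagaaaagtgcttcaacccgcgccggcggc
In CDC25A the 2 E2F-like matches are the same palindromic stretch read on both strands. In MCM6 each of the 2 longest stretches of capitals holds 2 overlapping E2F-like matches. In MKI67 a CHR-like match and a CCAAT box, read on the other strand, share bases.

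The 2% trimmed mean of the deposited signals lay between 133 and 202 on the 8 arrays and was brought to 172.9 on each. Differences are given on the log2(signal + 16) scale, which understates the change of dim genes, and the number of arrays limits their precision. Whether the paired arrays of each group stem from independent cultures is not stated, so the p-values reflect the scatter of these 8 samples alone, and that scatter may be technical. The signal ratio of the ACTB control probe sets at the 3′ and 5′ ends, a sign of RNA length, was 54.8 and 25.6 in DKS-5 hypoxia and 55.1 and 34.3 in DKS-5 normoxia. It was 11.5 and 11.0 in DKO-3 hypoxia and 49.0 and 14.9 in DKO-3 normoxia. The DKO-3 hypoxia arrays were below all others, and the other 3 groups overlapped. Of 11 colon epithelium markers, 8 reached the filter. EPCAM, CDH1 and KRT18 had signals of at least 3623 on every array, while KRT8 read 238 to 1283, and CDX1, LGALS4 and GPA33 were below the filter. VIL1 read 54.7 to 103 in DKS-5 and 12.8 to 17.5 in DKO-3. KRT20, a keratin of differentiated colon cells, read 6.19 to 15.5 in DKS-5 and 301 to 445 in DKO-3. Of the fibroblast, endothelial, leukocyte and erythroid markers, the filter was reached by COL1A1 and HBB alone, with signals of at most 27.1 and 47.5.

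Under hypoxia the cell cycle genes stayed close to their normoxic level in both lines. The 40 differences between hypoxia and normoxia ran between -0.32 for CENPE and 0.86 for MYBL2 in the DKS-5 line, and for the DKO-3 line between -0.41 for CDC25A and 0.63 for MCM5. None of the 40 passed the threshold in either line in limma's test with Benjamini-Hochberg adjustment, while 0.503% of all genes were called higher in DKS-5 and 0.346% in DKO-3, and 0% were called lower in either. At an unadjusted p under 0.05, 2 members were higher and 0 lower in DKS-5 (4.45% and 2.47% of all genes), and 2 were higher and 1 lower in DKO-3 (7.81% and 2.69%). The members had medians of 0.11 (DKS-5) and 0.12 (DKO-3), beside 0.02 and 0.03 over all genes tested.

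The hypoxia itself was visible on the same arrays. NDRG1, a stress gene used widely as a hypoxia marker, read 1995 and 2095 in DKS-5 hypoxia, against 132 and 127 in DKS-5 normoxia. DKO-3 arrays gave 2006 and 1930.4 in hypoxia, against 413 and 341 in normoxia. The 8 hypoxia genes drawn for scale had median differences of 2.45 (DKS-5) and 1.95 (DKO-3), and all 8 passed in both lines. They were chosen because earlier results of these data showed them rising, so their count is no independent evidence.

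**Figure D1:**
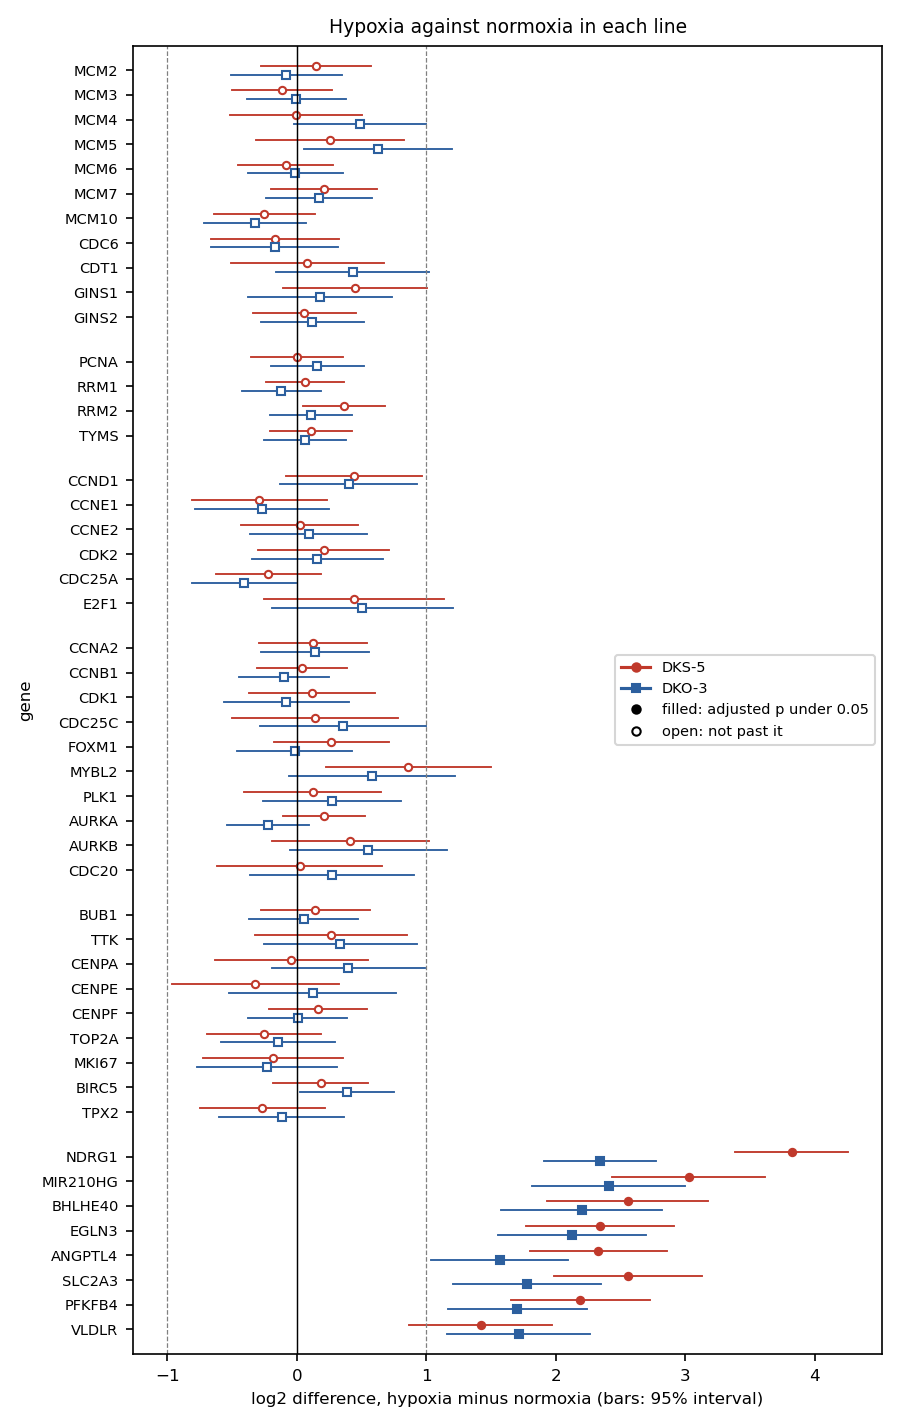
Differences between hypoxia and normoxia (x axis, log2) for the 40 cell cycle genes, in the order of their roles, and for 8 hypoxia genes at the bottom. Red circles are DKS-5, blue squares DKO-3, bars are 95% intervals and filled symbols passed the adjusted threshold. Dashed lines mark a 2-fold difference. The cell cycle genes lie around 0 with no filled symbol, and the hypoxia genes lie to the right of 1.

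How large a change could have been missed can be read off the 95% intervals. In DKS-5 the interval of 36 of the 40 members stayed within a 2-fold difference either way, with MYBL2, E2F1, AURKB and GINS1 as the exceptions. In DKO-3 it did so for 34, the exceptions being MYBL2, E2F1, MCM5, AURKB, CDT1 and CDC25C. The median standard error of a member was 0.22 in each line. Smaller differences therefore remain possible for every member. In simulated arrays with the same means and spreads, 38% of 2-fold and 88% of 4-fold changes were called in DKS-5 hypoxia, and 34% and 90% in DKO-3 hypoxia.

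Among the 11 licensing and helicase genes the median difference was 0.06 for DKS-5 and 0.12 for DKO-3. MCM5, a subunit of the helicase ring, read 67.9 and 83.6 in DKS-5 hypoxia, against 54.5 and 66.8 in DKS-5 normoxia. DKO-3 arrays gave 135 and 112 in hypoxia, against 56.9 and 95.1 in normoxia. Its hypoxic arrays lay above the normoxic ones in both lines, with differences of 0.26 ± 0.27 (SE) in DKS-5 and 0.63 ± 0.27 in DKO-3 and limma adjusted p of 0.909 and 0.432. MCM10, which helps to fire the loaded helicase, ran the other way. It read 1284 and 1376 in DKS-5 hypoxia, against 1626 and 1542 in DKS-5 normoxia, and 998 and 1212 in DKO-3 hypoxia, against readings of 1439 and 1323 in DKO-3 normoxia. Its differences were -0.25 ± 0.18 for DKS-5 and -0.32 ± 0.18 for DKO-3, and the limma adjusted p were 0.855 and 0.561.

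The other helicase genes showed no common direction. MCM4 read 1579.8 and 2618 in DKO-3 hypoxia, against 1672 and 1248 in DKO-3 normoxia, a difference of 0.49 ± 0.24 with a limma adjusted p of 0.494. Its 2 hypoxic arrays differed from each other by more than the groups did, and the groups overlapped. GINS1, a part of the GINS complex of the moving helicase, read 633 and 876 in DKS-5 hypoxia, against 600.0 and 488 in DKS-5 normoxia, a difference of 0.45 ± 0.26 with a limma adjusted p of 0.797. The remaining MCM2, MCM3, MCM6, MCM7, CDC6, CDT1 and GINS2 had differences between -0.17 for CDC6 and 0.21 for MCM7 in DKS-5, and between -0.17 for CDC6 and 0.43 for CDT1 in DKO-3.

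The 4 genes of the fork and of nucleotide supply differed by 0.36 or less in both lines. RRM2, the inducible small subunit of ribonucleotide reductase, read 7566 and 5945 in DKS-5 hypoxia, against 5425 and 5006 in DKS-5 normoxia. The groups did not overlap, and the difference of 0.36 ± 0.15 had an unadjusted p of 0.0273 and a limma adjusted p of 0.630. DKO-3 arrays gave 6088 and 5094 in hypoxia, against 4994 and 5329 in normoxia, and the groups overlapped. PCNA, the sliding clamp of the polymerases, differed by 0.00 ± 0.17 in DKS-5 and 0.16 ± 0.17 in DKO-3. RRM1, the large subunit of the same reductase, and TYMS, which makes thymidylate, lay between -0.12 and 0.11 in both lines.

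The 6 genes of G1 and the G1/S step had no common direction, with CDC25A below 0 and CCND1 above 0 in both lines. CDC25A, the phosphatase that activates CDK2, read 1386 and 1188 in DKS-5 hypoxia, against 1576 and 1418 in DKS-5 normoxia. The DKO-3 values were 980.4 and 1117 in hypoxia, against 1498 and 1299 in normoxia. Both hypoxic arrays were below both normoxic ones in each line. The difference was -0.22 ± 0.19 in DKS-5 and -0.41 ± 0.19 in DKO-3, with limma adjusted p of 0.887 and 0.468. CCND1, the gene of cyclin D1 that pairs with CDK4 and CDK6, read 995 and 1805 in DKS-5 hypoxia, against 1005 and 959.6 in DKS-5 normoxia. The DKO-3 values were 1283 and 1556 in hypoxia, against 949 and 1195 in normoxia. Only array 2 of DKS-5 hypoxia stood above the normoxic arrays, while in DKO-3 both did, and the differences were 0.44 ± 0.25 and 0.40 ± 0.25 with limma adjusted p of 0.790 and 0.598.

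E2F1, which drives the S-phase genes and is itself one of them, read 354 and 384 in DKS-5 hypoxia, against 266 and 268 in DKS-5 normoxia. The DKO-3 values were 403 and 349 in hypoxia, against 157 and 421 in normoxia, so that the normoxic arrays lay on either side of both hypoxic ones. The limma adjusted p was 0.856 in DKS-5 and 0.618 in DKO-3. CCNE1, the gene of cyclin E1, had differences of -0.29 and -0.27, CCNE2, that of cyclin E2, 0.02 and 0.09, and their kinase CDK2 0.21 and 0.16 in DKS-5 and DKO-3, all with overlapping groups.

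All 10 genes of G2/M control had positive differences in DKS-5, with a median of 0.13, and 6 of the 10 did in DKO-3, with a median of 0.20. The medians over all genes were 0.02 and 0.03. These signs can depend on the array scaling. Without it the DKS-5 difference was -0.05 for AURKA and 0.68 for MYBL2. The median over all mitotic members was then -0.12, beside -0.19 over all genes. MYBL2, the gene of B-MYB, read 32.2 and 78.1 in DKS-5 hypoxia, against 23.0 and 19.2 in DKS-5 normoxia. In DKO-3 it read 44.5 and 40.9 in hypoxia, against 28.8 and 18.3 in normoxia. Hypoxic arrays were above normoxic ones in both lines. The difference was 0.86 ± 0.30 in DKS-5 (95% interval 0.22 to 1.502, limma adjusted p = 0.542) and 0.58 ± 0.30 in DKO-3 (limma adjusted p = 0.517). The estimate in DKS-5 rested on array 2: it was 0.38 without that array and 1.35 without array 1. Each of these fits leaves 1 hypoxic array in DKS-5, which is assumed to vary like the other groups. MYBL2 lies near the dim end of the scale, and with a pseudocount of 1 in place of 16 the DKS-5 difference was 1.22.

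AURKB, the Aurora kinase of the chromosomal passenger complex, read 190.1 and 161 in DKS-5 hypoxia, against 147 and 110.0 in DKS-5 normoxia. In DKO-3 it read 202 and 197 in hypoxia, against 94.0 and 180.4 in normoxia, so that it was higher without overlap in both lines, by 0.41 ± 0.29 and 0.55 ± 0.29 (limma adjusted p = 0.845 and 0.517). AURKA, the Aurora kinase of the spindle poles, was the single member whose groups were apart in opposite directions, and it is taken up below with the lines. The share of all genes apart in opposite directions was not computed, so nothing particular to the members is read from it. FOXM1, a transcription factor of the G2/M wave, had differences of 0.27 (DKS-5) and -0.01 (DKO-3). The remaining CCNA2, CCNB1, CDK1, CDC25C, PLK1 and CDC20, which hold the cyclins A2 and B1, their kinase, its activating phosphatase, Polo-like kinase 1 and the activator of the anaphase-promoting complex, lay between 0.02 for CDC20 and 0.14 for CDC25C in DKS-5, and between -0.10 for CCNB1 and 0.36 for CDC25C in DKO-3.

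The 9 genes of mitotic structure and checkpoint had medians of -0.04 (DKS-5) and 0.05 (DKO-3), and here the 2 arrays of DKS-5 hypoxia disagreed. MKI67, the gene of the proliferation marker Ki-67, read 3746 and 1746 in DKS-5 hypoxia, against 2995 and 2816 in DKS-5 normoxia. TOP2A, which untangles sister chromatids, read 4143 and 2388 in DKS-5 hypoxia, against 4021 and 3494 in DKS-5 normoxia. For both genes 1 hypoxic array was above and the other below both normoxic arrays. CENPE and TPX2, a kinetochore motor and a spindle assembly factor, were split in the same way between these arrays, with 649.9 and 301 for CENPE and 1366 and 856 for TPX2 in DKS-5 hypoxia. Over the 9 genes array 2 was lower than array 1 by a median of 0.59, with 7 of 9 lower, while the median over all genes was 0.02 in the other direction. The ACTB ratio of these arrays was 54.8 for array 1 and 25.6 for array 2, and the part of RNA length in the split was not tested. Without array 1 the DKS-5 differences were -0.73 for MKI67 and -0.65 for TOP2A. With both arrays the DKS-5 differences were -0.18 ± 0.25 for MKI67 and -0.25 ± 0.21 for TOP2A.

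In DKO-3 the same genes were tighter. MKI67 read 2307 and 2205 in DKO-3 hypoxia, against 2424 and 2898 in DKO-3 normoxia, and TOP2A read 3135 and 3231 in hypoxia, against 3352 and 3690.4 in normoxia. Both were lower without overlap, by 0.23 and 0.14 on the log2 scale, and neither passed (limma adjusted p = 0.794 and 0.851). BIRC5, the gene of survivin, another passenger complex protein, read 2994 and 2659.8 in DKO-3 hypoxia, against 1926 and 2405 in DKO-3 normoxia, a difference of 0.39 ± 0.17 with a limma adjusted p of 0.447. CENPA, the centromeric histone, was at 0.40 in DKO-3 and -0.04 in DKS-5. BUB1 and TTK, kinases of the spindle checkpoint, and CENPF, a kinetochore protein, lay between 0.01 and 0.34 in both lines.

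**Figure D2:**
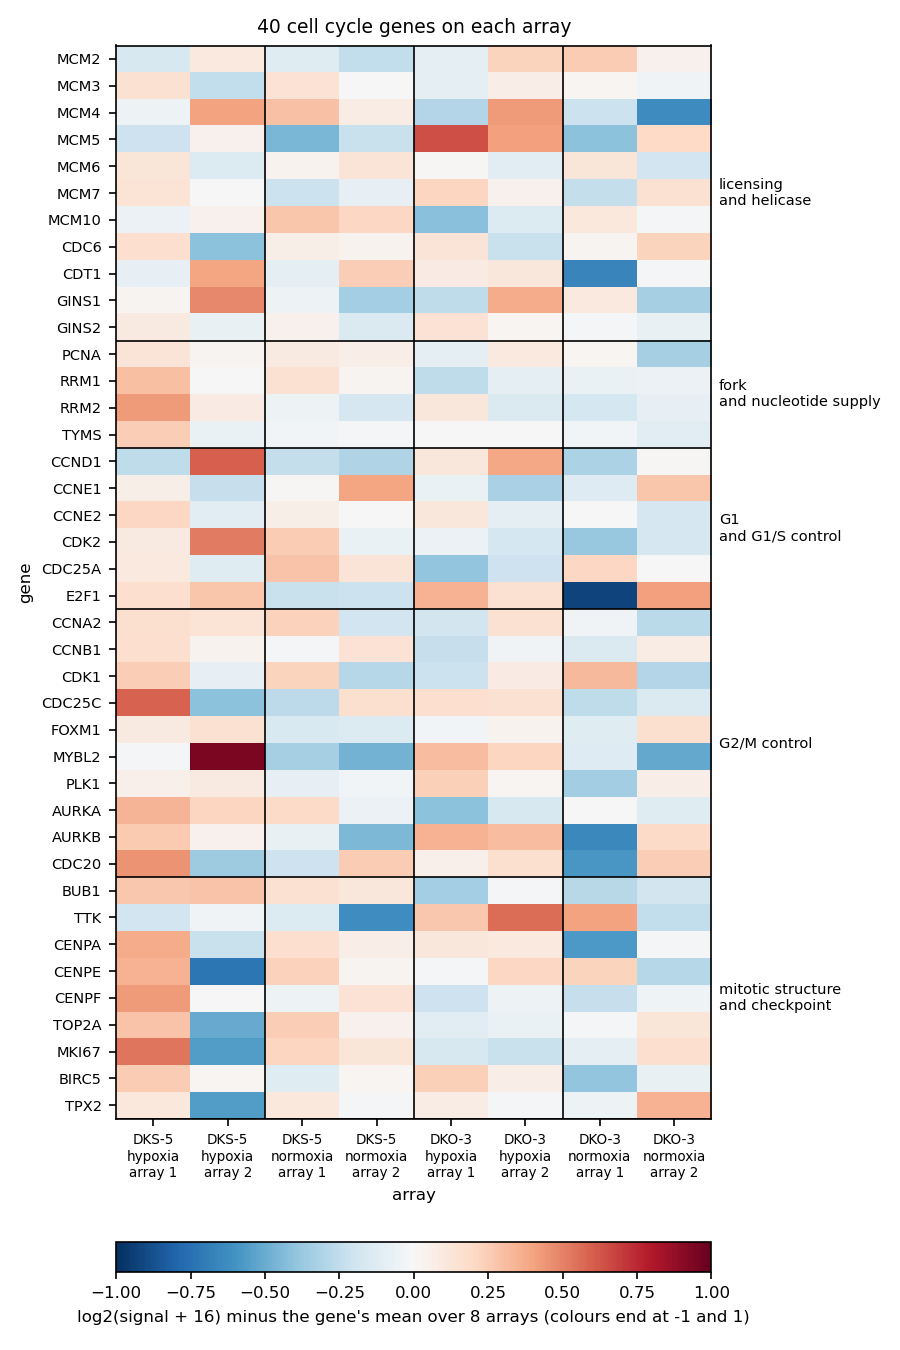
Each gene's log2(signal + 16) minus its mean over the 8 arrays, as colour, for the 40 genes (rows, by role) on the 8 arrays (columns, 2 per group). The MKI67, TOP2A and CENPE rows are red on array 1 and blue on array 2 of DKS-5 hypoxia. The darkest red cell is MYBL2 on array 2 of that group, and the darkest blue one is E2F1 on array 1 of DKO-3 normoxia.

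The S-phase and the mitotic genes were next set side by side under hypoxia. The 20 S-phase members had median differences of 0.06 (DKS-5) and 0.10 (DKO-3), with 13 and 12 of 20 positive. The 18 mitotic members had 0.13 and 0.09, with 13 and 11 of 18 positive. CCND1 and MYBL2 belong to neither list. Leaving out 1 array moved these medians across 0: without array 1 of DKS-5 hypoxia they were -0.03 (S-phase) and -0.04 (mitotic) in DKS-5, and without array 2 of DKO-3 hypoxia they were 0.06 and -0.04 in DKO-3. Without array 2 of DKS-5 normoxia they were -0.0017 and 0.10 in DKS-5, and without array 2 of DKO-3 normoxia -0.0021 and 0.09 in DKO-3. On the arrays themselves, the median deviation of the S-phase members from their own means was 0.11 and 0.02 in DKS-5 hypoxia and 0.04 and -0.00 in DKS-5 normoxia. In DKO-3 it was -0.03 and 0.01 in hypoxia and -0.02 and -0.05 in normoxia. For the mitotic members the values were 0.27 and -0.02 in DKS-5 hypoxia and 0.05 and 0.03 in DKS-5 normoxia, and -0.02 and 0.05 in DKO-3 hypoxia and -0.13 and -0.03 in DKO-3 normoxia. The mitotic value of the first DKS-5 hypoxia array was the highest of all, and its own replicate lay with the other groups.

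**Figure D3:**
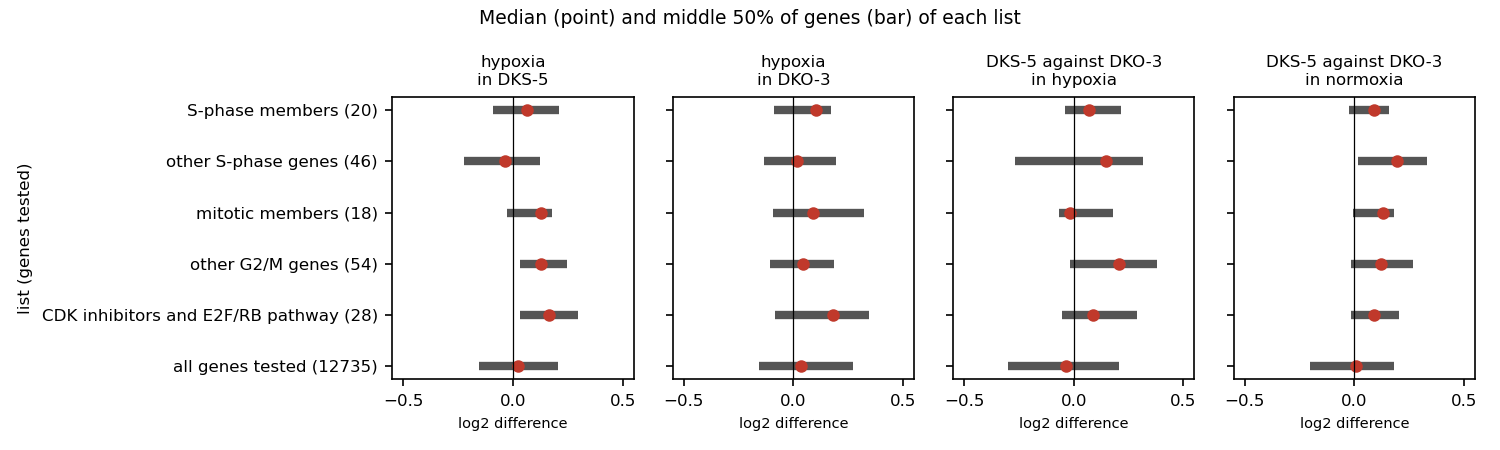
Median log2 difference (point) and the middle 50% of genes (bar) of each gene list in 4 comparisons, with the number of genes tested in brackets. In every panel the members' points lie within 0.2 of 0.

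Groups that did not overlap were counted next. In DKS-5, 11 of 40 members (27.5%) had both hypoxic arrays above both normoxic ones and 2 (5%) had both below, beside 19.8% and 15.7% of all genes. In DKO-3 the counts were 10 (25%) above and 6 (15%) below, beside 25% and 17.1% of all genes. MCM5, MYBL2 and AURKB were above in both lines, and MCM10 and CDC25A were below in both. The share of all genes apart in both lines was not computed, so these names are a description and no excess is read from them. The 2 lines share no arrays, and across the 40 members their hypoxia differences had a Pearson r of 0.63, with the same sign in 31 of 40 (77.5%). Over all 12735 genes tested r was 0.49 and the sign agreed in 63.9%. These are correlations across genes, which are not independent replicates and share each array's scaling.

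Averaging the hypoxia difference over the lines, with a median standard error of 0.16, brought no member past the threshold, where 1.19% of all genes were called, 1.14% higher and 0.055% lower. Before adjustment, at p under 0.05, 6 of 40 members (15%) were higher and 2 (5%) lower, beside 9.74% and 4.59% of all genes. MYBL2 had 0.72 ± 0.21 (limma adjusted p = 0.133), CCND1 0.42 ± 0.18 (0.290), AURKB 0.48 ± 0.20 (0.292) and BIRC5 0.29 ± 0.12 (0.302). The 2 lower ones were CDC25A at -0.31 ± 0.13 and MCM10 at -0.29 ± 0.13. With the ACTB ratio as a covariate, 2 members in place of 8 had an unadjusted p under 0.05. The matching share of all genes was not computed. MYBL2 then had 0.68 ± 0.26 (limma adjusted p = 0.544). Leaving out array 1 of DKS-5 hypoxia gave averaged differences of 0.96 for MYBL2, 0.63 for CCND1, -0.48 for MKI67 and -0.40 for TOP2A. Leaving out array 2 of DKO-3 normoxia gave 0.81 for E2F1. Such fits leave 1 array in a group, so only the sizes are given.

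Between the lines AURKA was the single member that passed the threshold, although it did not have the largest difference. AURKA read 5937 and 5440.4 in DKS-5 hypoxia, against 3513 and 4188 in DKO-3 hypoxia. In normoxia it read 5353 and 4498 in DKS-5, against 4653 and 4304 in DKO-3. Only the hypoxic arrays were apart between the lines. The difference in hypoxia, DKS-5 over DKO-3, was 0.57 ± 0.15 (95% interval 0.25 to 0.88), or 1.48-fold, with a limma adjusted p of 0.0424, and that in normoxia was 0.13 ± 0.15 with an adjusted p of 0.870. In hypoxia 4.38% of all genes were called, 1.4% higher and 2.98% lower in DKS-5, so 1 call among 40 members (2.5%) is not far from the background share. At an unadjusted p under 0.05, 3 members were higher (7.4% of all genes) and 1 was lower (11%).

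The AURKA call depended on the processing. It was lost with quantile normalization (0.35, limma adjusted p = 0.174), without the array scaling (0.11, 0.598), with the mean of its 3 probe sets (0.27, 0.454), without the filter on dim genes (0.131), in a fit of the 4 hypoxic arrays alone (0.149) and with the ACTB ratio as a covariate (0.38, 0.511). Of its 3 probe sets, 2 gave 0.57 and 0.54 and the third -0.29. Leaving out single arrays gave 0.44 to 0.69, with adjusted p between 0.0322 and 0.371, and the call held in 1 of these 8 fits, the one without array 2 of DKS-5 hypoxia.

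Averaged over oxygen levels, AURKA was 0.35 ± 0.10 higher in DKS-5 than in DKO-3 (1.27-fold, limma adjusted p = 0.0492), with 9.12% of all genes called, 2.98% higher and 6.14% lower. Before adjustment, at p under 0.05, 4 members were higher (9.2% of all genes) and 2 were lower (13.3%). The averaged AURKA call was lost, among others, with quantile normalization (0.23, limma adjusted p = 0.142), without the array scaling (0.12, 0.494), with the mean of its probe sets (0.36, 0.111), with the ACTB ratio as a covariate (0.22, 0.538), without the filter (0.130), with a pseudocount of 1 (0.0520) and with the replicate block (0.0515). Leaving out single arrays gave averaged AURKA differences of 0.29 to 0.41. BUB1 came next at 0.41 ± 0.14 with a limma adjusted p of 0.0883, and its lines were apart at both oxygen levels. BUB1 read 1089 and 1102 in DKS-5 hypoxia, against 709 and 893 in DKO-3 hypoxia, and 1006 and 975.3 in DKS-5 normoxia, against 743 and 791 in DKO-3 normoxia. MCM10, RRM1, CDK2 and BUB1 were the members whose DKS-5 arrays lay above the DKO-3 arrays at both oxygen levels. How many of all genes did so at both levels was not computed, so no excess is read from these names. RRM1 averaged 0.24 ± 0.10 and CDK2 0.39 ± 0.17 higher, with limma adjusted p of 0.170 and 0.174. TTK ran the other way at -0.49 ± 0.20 (limma adjusted p = 0.145), with 189.7 and 214 in DKS-5 hypoxia, against 267 and 331 in DKO-3 hypoxia. Without array 2 of DKS-5 hypoxia, the averaged differences were 0.31 for RRM1, 0.37 for CENPF, 0.43 for MKI67 and 0.38 for AURKA.

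In normoxia no member passed between the lines, where 0.707% of all genes were called higher and 1.84% lower in DKS-5. The either-way share was 2.54%. At an unadjusted p under 0.05 there was 1 member higher, MCM4 (3.75% of all genes), and 0 lower (7.61%). MCM4 read 2378 and 2040.1 in DKS-5 normoxia, against 1672 and 1248 in DKO-3 normoxia, a difference of 0.60 ± 0.24 with a limma adjusted p of 0.295. MCM2 had -0.33 ± 0.20 and TTK -0.45 ± 0.28, with limma adjusted p of 0.639 and 0.631. Groups did not overlap for 8 of 40 members (20%) higher and 2 (5%) lower in DKS-5, beside 21.4% and 22.2% of all genes. In hypoxia the counts were 9 (22.5%) higher and 3 (7.5%) lower, beside 19.1% and 25.9%. FOXM1 was higher in DKS-5 than in DKO-3 in hypoxia and lower in normoxia, by 0.12 and -0.16, and neither difference passed. MCM5, lower in DKS-5 in hypoxia by 0.61 on the log2 scale, did not pass either (limma adjusted p = 0.238).

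The medians between the lines were small as well. For DKS-5 against DKO-3 they were 0.07 over the S-phase and -0.02 over the mitotic members in hypoxia, and 0.09 and 0.13 in normoxia, beside -0.03 and 0.01 over all genes. The interval stayed within 2-fold for 38 members in hypoxia (the exceptions being MCM5 and TTK) and 37 in normoxia (MCM4, TTK and CDT1).

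**Figure D4:**
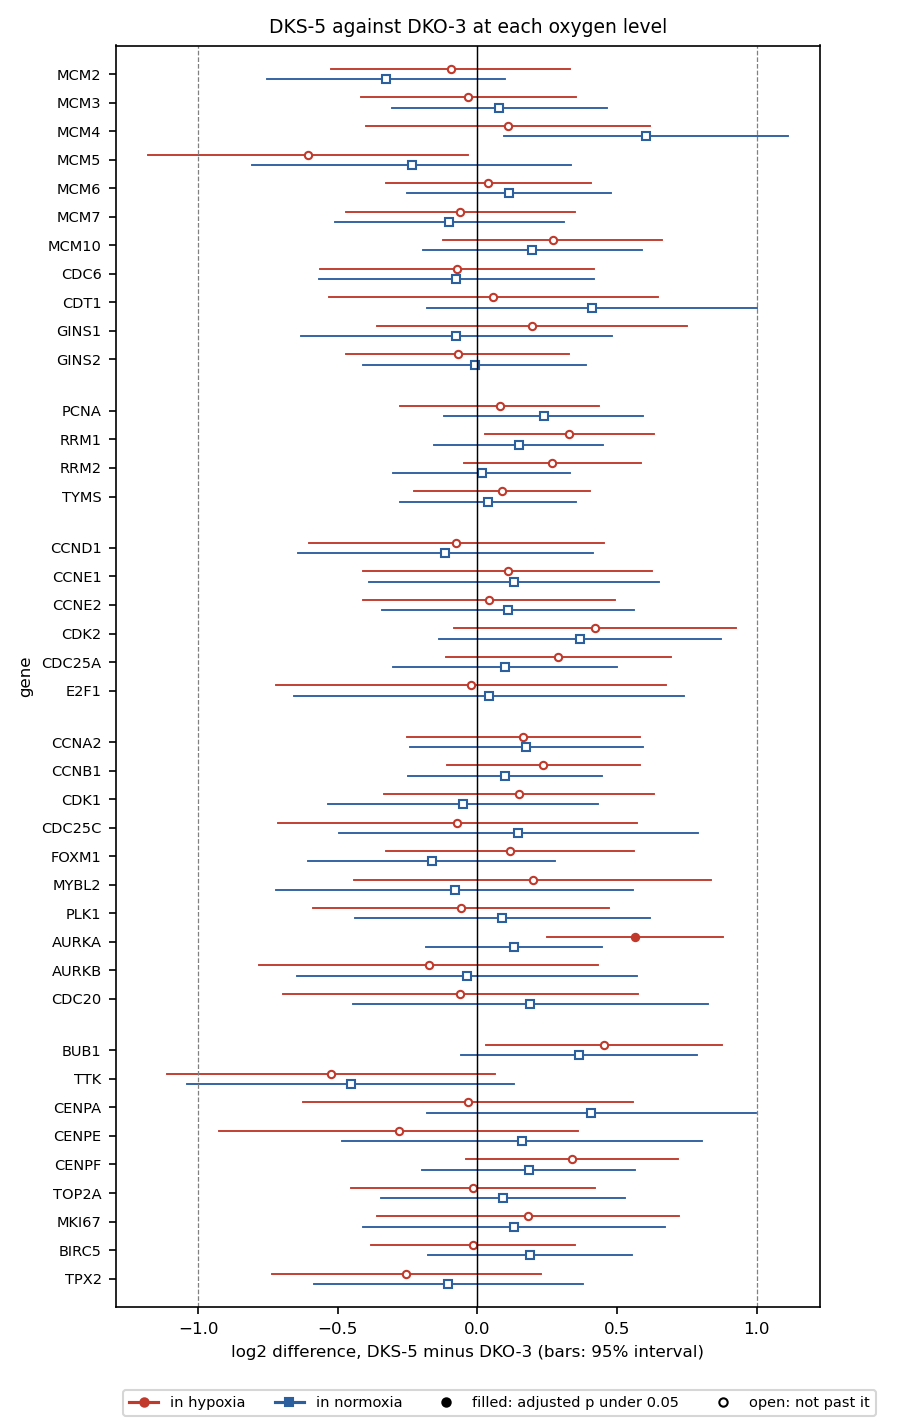
Differences between the lines (x axis, log2, DKS-5 minus DKO-3) for the 40 genes by role, in hypoxia (red circles) and in normoxia (blue squares), with 95% intervals. AURKA in hypoxia is the single filled symbol.

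The test of whether hypoxia acted differently in the lines found no member past the threshold, and 0% of all genes passed it, with 1.09% of all genes at an unadjusted p under 0.05 upward and 1.53% downward, and 0 members among them. AURKA had the smallest p of the members. Its hypoxic arrays lay above the normoxic ones in DKS-5 (0.21 ± 0.15) and below them in DKO-3 (-0.22 ± 0.15), and the difference of these responses was 0.43 ± 0.21 with an unadjusted p of 0.0562 and a limma adjusted p of 1.00. MCM4 at -0.49 ± 0.34, RRM2 at 0.25 ± 0.21 and CENPA at -0.44 ± 0.39 followed, all with adjusted p of 1.00. The precision here is lower, since 10 of the 40 intervals reached 2-fold and 4% of simulated 2-fold differences were called.

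The other genes of the pathway were taken from 3 lists. Of 28 genes in the list of CDK inhibitors and the E2F and RB pathway, 1 rose in DKS-5 hypoxia. CDKN1A, the gene of the CDK inhibitor p21, read 738 and 967 in DKS-5 hypoxia, against 368 and 379 in DKS-5 normoxia. The rise was 1.14 ± 0.22 (limma adjusted p = 0.0221). The DKO-3 values were 846 and 945 in hypoxia, against 696 and 595 in normoxia, a difference of 0.46 ± 0.22 with a limma adjusted p of 0.472. The difference of these responses was 0.68 ± 0.31 with a limma adjusted p of 1.00. Averaged over the lines CDKN1A rose by 0.80 ± 0.15 (limma adjusted p = 0.0123). The DKS-5 call was lost without array 2 of DKS-5 hypoxia (0.95, limma adjusted p = 0.203), without either DKS-5 normoxia array (1.12 and 1.16, with 0.355 and 0.193) without array scaling (0.89, 0.246), without the filter (0.0711) and in a fit of the DKS-5 arrays alone (0.132). The averaged call was lost, among others, with the ACTB ratio as a covariate (0.79, 0.110).

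CDK6, a partner kinase of the D cyclins, and CCND2, the gene of cyclin D2, differed between the lines at both oxygen levels. CDK6 read 321 and 310.3 in DKS-5 hypoxia, against 60.3 and 96.4 in DKO-3 hypoxia, and 492 and 486 in DKS-5 normoxia, against 152 and 125 in DKO-3 normoxia. It was higher in DKS-5 by 1.84 ± 0.25 in hypoxia and 1.72 ± 0.25 in normoxia (limma adjusted p = 0.00051 and 0.00106), and every DKS-5 array was above every DKO-3 array. The call in hypoxia was lost in 2 of 17 alternatives, with the mean of its probe sets (0.58, limma adjusted p = 0.110) and with the ACTB ratio as a covariate (1.67, 0.0503). CCND2 read 18.8 and 22.5 in DKS-5 hypoxia, against 52.7 and 59.5 in DKO-3 hypoxia, and 16.2 and 20.2 in DKS-5 normoxia, against 62.3 and 60.2 in DKO-3 normoxia. It was lower in DKS-5, with -0.98 ± 0.24 in hypoxia and -1.18 ± 0.24 in normoxia (limma adjusted p = 0.0310 and 0.0125). These CCND2 calls were lost in 10 of 16 alternatives in hypoxia and 5 of 16 in normoxia, and the averaged difference of -1.08 passed in all 15 that gave a value. E2F7, an E2F family repressor, had a difference of 0.78 between the lines in hypoxia, higher in DKS-5, with a limma adjusted p of 0.0496. CCND1, the cyclin D among the 40 members, differed by -0.08 in hypoxia and -0.12 in normoxia.

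Of 46 other S-phase genes, 0 passed for hypoxia in either line, with medians of -0.04 (DKS-5) and 0.01 (DKO-3). TK1, the thymidine kinase of the nucleotide salvage route, rose under hypoxia averaged over the lines by 0.96 ± 0.20 (limma adjusted p = 0.0261). It read 149.8 and 256 in DKS-5 hypoxia, against 119.7 and 136 in DKS-5 normoxia, and 309 and 393 in DKO-3 hypoxia, against 106 and 153 in DKO-3 normoxia. Adding the ACTB ratio as a covariate gave 0.68, which did not pass (limma adjusted p = 0.294), and it was lost in 6 of the 8 fits that left out 1 array. Between the lines, RFC5, a clamp loader subunit, was higher in DKS-5 by 0.56 in hypoxia and 0.45 on average, and UHRF1, which guides maintenance methylation behind the fork, by 0.46 on average (limma adjusted p = 0.0388, 0.0102 and 0.0391).

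Of 54 other G2/M genes, 0 passed for hypoxia in either line, with medians of 0.13 (DKS-5) and 0.05 (DKO-3). Averaged over oxygen levels 6 were higher and 1 lower in DKS-5 than in DKO-3, beside 2.98% and 6.14% of all genes. The 4 with the smallest p were PBK, a mitotic kinase, at 0.71, HMMR, a spindle protein, at 0.71, ASPM, a spindle pole protein, at 0.71, and CCNB2, the gene of cyclin B2, at -0.54 (limma adjusted p = 0.00466, 0.00780, 0.0126 and 0.0213). PBK and HMMR also passed in hypoxia alone, at 0.78 and 0.83, and of 17 alternatives these calls were lost in 11 for PBK and 12 for HMMR, as were 13 for RFC5 and 15 for E2F7 in hypoxia. The median of the 54 genes between the lines was 0.21 in hypoxia and 0.12 in normoxia, beside -0.03 and 0.01 over all genes. The 46 other S-phase genes had 0.15 and 0.19, so a shift of this size was not particular to the G2/M list. With the ACTB ratio as a covariate none of PBK, HMMR, ASPM, CCNB2, RFC5 and UHRF1 passed on average, with limma adjusted p between 0.110 and 0.296.

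Where a list had no call, its genes with the smallest p are given. Under hypoxia the DKS-5 genes were ATAD2 at -0.77, TIPIN at -0.53, HMMR at 0.52 and KIF4A at 0.46, with limma adjusted p of 0.556 or more. The DKO-3 genes were TK1 at 1.34 (limma adjusted p = 0.0659), LIG1 at 0.75, CENPM at 0.61, UBE2C at 0.66, CDK6 at -0.73 and CDKN1C at 0.69. For hypoxia on average the G2/M genes HMMR and SPC24 had 0.40 and 0.41. Between the lines in normoxia UHRF1 had 0.49, ATAD2 0.67, PBK 0.64 and ASPM 0.71. For the difference of the responses ATAD2 had -0.95, FEN1 0.41, ANLN 0.52, TUBB4B 0.42 and E2F8 -0.59.

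**Figure D5:**
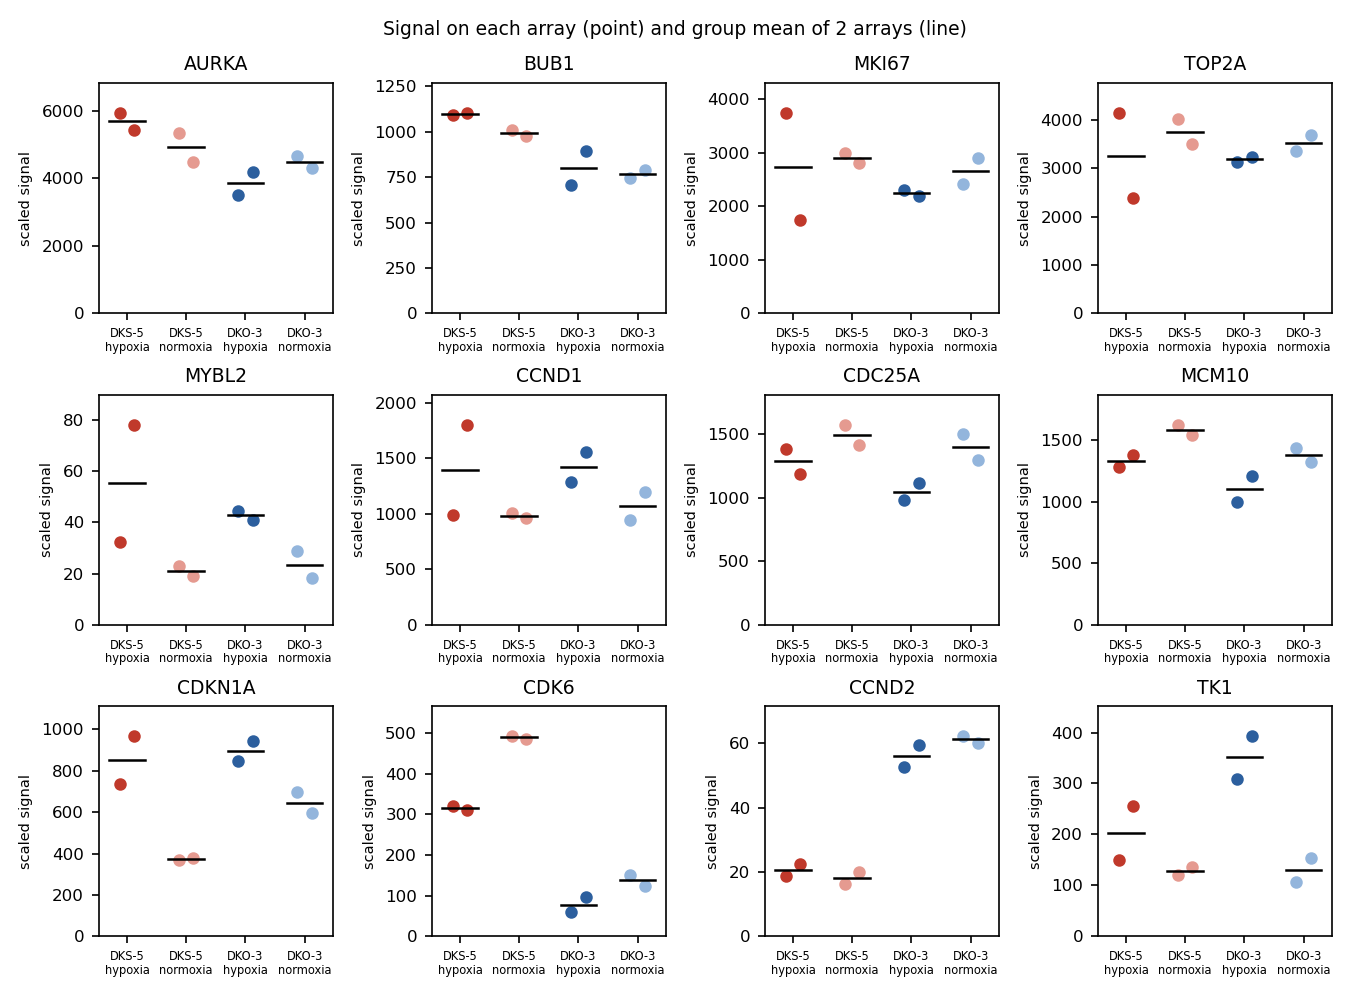
Scaled signal (y axis, from 0) of 12 genes in the 4 groups, each point 1 array and each line the mean of 2. The panels show 8 members and, in the bottom row, 4 genes of the other lists. CDK6 and CCND2 separate the lines at both oxygen levels, and the first and second arrays of DKS-5 hypoxia are far apart for MKI67, TOP2A, MYBL2 and CCND1.

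The choice of probe set mattered for the size of these differences. The 40 members had 89 probe sets, of which 84 were above the brightness filter, and 26 genes had more than 1 above it. The 44 probe sets above the filter that were not chosen had a median hypoxia difference of 0.04 (DKS-5) and 0.25 (DKO-3, where 36 of 44 were positive). The chosen ones had 0.11 and 0.12. For DKS-5 against DKO-3 in hypoxia the other probe sets had a median of -0.15, and the chosen ones 0.05. Probe sets of a gene lie at different distances from the 3′ end, and the ACTB ratio was lowest in DKO-3 hypoxia, at 11.5 and 11.0. Its part in the difference between probe sets was not tested.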

How the data were processed

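RNA of 8 samples was purified on Qiagen RNeasy columns, amplified (NuGEN Ovation V2) and given a biotin label, per the labels' protocols. The deposited values are probe set intensities on a linear scale, and the submitters' processing notes name MAS5. Its settings are not given in the sources used here. The members, lists, tests and alternatives were chosen with earlier results of these data known.

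Of 54675 probe sets, 62 were controls, 41091 had 1 gene symbol, 1801 several, and 11721 were unnamed here. Symbols were checked against RefSeq (41037 probe sets matched, 0 symbols changed). The arrays' trimmed means differed 1.52-fold, above the 10% tolerance, so each array was scaled to the median 2% trimmed mean, and log2(signal + 16) was taken. Each gene took its probe set with the highest mean, and genes above the 40th percentile of probe set means (a signal of 13.8) were tested. The test was that of limma 3.58.1 under R 4.3.3, with 1 mean per group over all 8 arrays, eBayes with a trend, two-sided, and Benjamini-Hochberg adjustment over 12735 genes at 0.05 (4 residual and 11.3 prior degrees of freedom). The test was checked on simulated arrays with 200 changed genes. No set test was run.

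Per comparison, the members past the threshold (at most 8) were named, or else the 4 with the smallest p. Per other list, those past it (at most 4) were named, or else the 2 with the smallest p. Further members are given by role. Alternatives were other scalings, pseudocounts of 1 and 64, no filter, the mean of a gene's probe sets, only the arrays compared, the replicate number as a block, the ACTB 3′/5′ ratio as a covariate, and leaving out each array. The same alternatives for genes of the other lists were added after seeing the data. Members and sequences were matched to RefSeq promoters of GRCh38.p14 by symbol.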

Additional observations from a re-analysis of the deposited data

Results flagged for a closer look

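AURKA drew attention because its 2 hypoxic arrays lay above both normoxic arrays in DKS-5 and below both in DKO-3. Of all genes, 19.8% lay above without overlap in DKS-5 and 17.1% lay below in DKO-3. The share that did both was not computed, so AURKA is not read as an excess among the members. The difference of the hypoxia responses, DKS-5 minus DKO-3, was 0.43 ± 0.21 (SE) on the log2 scale, with an unadjusted p of 0.0562 and a limma adjusted p of 1.00, so it did not pass. With the mean of its 3 probe sets the difference was -0.17. The ACTB 3′/5′ ratio was 54.8 and 25.6 in DKS-5 hypoxia, 55.1 and 34.3 in DKS-5 normoxia, 11.5 and 11.0 in DKO-3 hypoxia and 49.0 and 14.9 in DKO-3 normoxia. With that ratio as a covariate the difference was 0.32 ± 0.24.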

How the results depend on the processing

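Array scaling moved several medians. Without it, the median over all genes was -0.19 for hypoxia in DKS-5, 0.20 for hypoxia in DKO-3, -0.41 for the difference of the responses, -0.42 between the lines in hypoxia and -0.21 between them on average. The medians of the S-phase and the mitotic members moved with it, to -0.195 and -0.120 for hypoxia in DKS-5, 0.293 and 0.277 in DKO-3, -0.449 and -0.496 for the difference of the responses, -0.372 and -0.416 between the lines in hypoxia and -0.152 and -0.162 on average. Quantile normalization gave S-phase medians of 0.144 for hypoxia in DKO-3 and 0.0163 between the lines in hypoxia. The mean of all probe sets gave 0.169 (S-phase) and 0.198 (mitotic) for hypoxia in DKO-3, and S-phase medians of -0.117 for the difference of the responses and of -0.0311 and 0.0311 between the lines in hypoxia and on average. With the ACTB covariate the S-phase medians were 0.0391 for the difference of the responses, and -0.000592, 0.0103 and -0.00790 between the lines in normoxia, in hypoxia and on average. The mitotic median between the lines in hypoxia, -0.0165, turned to 0.0911 with the covariate and to 0.0285 with quantile normalization, and on average the covariate gave 0.131 in place of 0.0564. The causes were not tested.

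Between the lines in hypoxia 1 member passed, and without scaling 3 did, all lower in DKS-5 (MCM5, TTK, TPX2). Without scaling 2320 of all 12747 genes tested were called lower and 63 higher, against 380 and 178 of 12735 with it. The count of members was 0 with quantile normalization, without the filter, with the mean of probe sets, with only the arrays compared and with the covariate. On average over oxygen levels 1 member passed, and without scaling 2 did (MCM5 and TTK, lower). Here 1637 of all genes were called lower and 137 higher without scaling, against 782 and 380 with it. The count of members was 0 with quantile normalization, a pseudocount of 1, no filter, the mean of probe sets, the covariate and the replicate block. Without scaling, the AURKA and RRM2 differences of responses reversed to -0.0179 and -0.198, and with the mean of probe sets that of AURKA to -0.175. None of these passed.

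Fits that left out a single array had a group without a replicate, so their counts of members past the threshold are not given. For these fits the range of the medians is given instead. S-phase medians ran -0.0328 to 0.106 (hypoxia in DKS-5), -0.00207 to 0.101 (DKO-3), -0.111 to 0.0709 (difference), 0.0446 to 0.0969 (lines in normoxia), 0.0305 to 0.167 (lines in hypoxia), 0.0433 to 0.117 (hypoxia on average) and 0.0421 to 0.141 (lines on average). Mitotic medians ran -0.0387 to 0.247, -0.0383 to 0.191, -0.189 to 0.166, 0.0256 to 0.203, -0.208 to 0.284, -0.0108 to 0.154 and -0.0218 to 0.204 in the same order.

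Same-numbered arrays deviated together with correlations between -0.088 and 0.330, not all over 0.1, so the numbers were taken as names only. With the replicate block AURKA between the lines had adjusted p of 0.0388 in hypoxia and 0.0515 on average, and all genes gave 284 higher and 41 lower calls for hypoxia on average, against 145 and 7 without it. For the named members, 334 of the values kept their side of the threshold and direction, 25 lost a call, 3 gained one and 3 reversed. Only AURKA between the lines, in hypoxia and on average, was a call to begin with. All 25 losses were therefore its own, more than it kept, and nearly all values that kept their side were non-calls. For genes of the other lists 218 kept it and 156 lost a call. CDK6 in normoxia and on average, and CCND2 on average, passed under every alternative that gave a value. CCND2 has no value with the mean of probe sets, where it was below the filter. With 2 arrays per group, even 2-fold differences are often missed. Of simulated 2-fold changes, 38% and 34% were called for hypoxia in DKS-5 and DKO-3, and 30% between the lines at each oxygen level. The share was 4% for the difference of the responses, 61% for hypoxia on average and 73% for the lines on average.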
